A study of Danio rerio with 8 samples.

Results

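The genes described here are the neighbours of hdac1 on zebrafish chromosome 19. On the Zv9 build hdac1 (ENSDARG00000015427) lies at chr19:31054097-31064046, and every gene that starts between 2 Mb before its start and 2 Mb past its end was taken, with hdac1 itself, rbb4 and hox genes left out. Both count tables listed 75 such genes under the same names, among 31172 genes in each table. Of these, 63 had a mean normalized count of at least 10 in at least 1 table, 60 in whole embryos and 60 in sorted cells, with 57 in both. Those tested in whole embryos alone were C19H1orf172 (2 of 2), sostdc1b and meox2b, and those in sorted cells alone were si:ch211-173b8.3, si:dkeyp-25a3.1 and a 5S_rRNA. The 12 left out by their low counts include 5 copies of 5S_rRNA and are not described. In whole embryos the lowest mean inside the limit was 14.0 normalized counts, for BX530067.1, and the highest outside it was 8.23, for a 5S_rRNA. In sorted cells these values were 10.4, for si:ch211-173b8.3, and 7.50, for paqr7a.

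Hdac1 is a histone deacetylase that removes acetyl groups from histones as part of corepressor complexes. A recessive mutation induced with a mutagen is inherited together with the chromosome segment around it. Embryos sorted by a homozygous mutant phenotype therefore tend to carry the mutagenized founder's alleles on both copies of the genes close to the mutation, while their siblings carry a mixture of alleles. An injected morpholino lowers its target without such a segment. For this reason the differences of the neighbours were described by their position, in the crg mutants beside the 3 comparisons that do not involve the mutant chromosome.

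The study sequenced 8 libraries of AB/TU zebrafish, 1 per condition. Whole embryos at 48 hpf were crg mutants (allele crg nl18, from an ENU screen, a recessive loss-of-function mutation of hdac1), their WT siblings, Cyp26-deficient embryos and a WT control for these. Sorted cells at 28 hpf were nkx2.5:ZsYellow+ cells, which carry a transgene driven by regulatory DNA of the heart gene nkx2.5, from embryos that were Hdac1-depleted by a morpholino (MO) against hdac1, from Cyp26-deficient embryos, and from a WT control for each. Cyp26 enzymes break down retinoic acid, and the methods list MOs against cyp26a1 and cyp26c1, without stating directly that the whole embryos received them. The methods give a p53 MO with every injection and no control MO for the WT libraries, and how many embryos or sorts went into a library is not given in the sources used here. Whole-embryo libraries were stranded and read from 1 end, whereas RNA of the sorted cells was first amplified and then read from both ends. Columns named crg-plus, crg-minus and AC48hpf were read as WT siblings, crg mutants and Cyp26-deficient embryos.

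With 1 library per condition, no difference has a replicate check and none was tested. Fold changes are log2 ratios of normalized counts after a pseudocount of 1 was added to both, and 95% exact (Clopper-Pearson) intervals of the ratio without pseudocount cover counting error only. "Raised" and "lowered" mean more than 2-fold apart between 2 libraries. Gene counts summed to 11070144 to 30257543 per library. In these mixed samples fewer cells of a type and less RNA per cell cannot be told apart. All 6 nkx2.5+ cell markers had counts in every sorted library, and markers of 5 other cell types did too, except that the lens gene cryaa was at 0 in 3 of 4. Summed normalized counts of the 3 lens markers were 536.7 in crg mutants and 9598 in WT siblings, those of the 4 neuron markers 6019 and 4654, those of the 5 erythrocyte markers 103488 and 167618, and those of the 4 skeletal muscle markers 311486 and 567312. The 3 epidermis markers together reached 761290 for WT siblings, the highest of the whole-embryo libraries, and 562734 for the mutants. For the Cyp26 WT control they reached 357962, and for Cyp26-deficient embryos 310466. The 6 nkx2.5+ cell markers summed to 3890 for WT siblings, against 2088 for the mutants. In Cyp26-deficient whole embryos the erythrocyte sum was 34177, against 102684 in their WT control. In sorted cells the lens sum was 90.5 after Hdac1 depletion and 876.4 in its WT control, the erythrocyte sum 544.9 and 2398, and the neuron sum 4986 and 9062. The skeletal muscle sum was 22066 in Cyp26-deficient sorted cells and 9114 in their WT control. The part of these differences in the values below was not tested.

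The expression of hdac1 was examined first. In whole embryos it had 6725 normalized counts in WT siblings and 2752 in crg mutants, with 12135 in the Cyp26 WT control and 9539 in Cyp26-deficient embryos. It was lowered in crg mutants, with a log2 fold change of -1.29 (-1.37 to -1.21). In sorted cells hdac1 had 12004 normalized counts in WT and 27452 in the library labelled Hdac1-depleted, a log2 fold change of 1.19 (1.16 to 1.22). The MO blocks translation according to the paper, so RNA levels do not check the label of this library. In Cyp26 deficiency the log2 fold change of hdac1 was -0.35 in whole embryos and 0.29 in sorted cells.

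Most neighbours of hdac1 differed little between crg mutants and WT siblings. Of 60 members, 10 (16.7%) were past 2-fold, where 14.2% of all 19888 genes tested were past it, so the share near hdac1 was close to that of the transcriptome. Among them 3 were raised (6.43% of all genes were) and 7 were lowered (7.78% of all genes were), namely si:dkey-150k17.3, zdhhc18b and hpcal4 in the first group and si:dkey-150k17.2, ctgfb, agr2, mrps18b, bzw2, sostdc1b and meox2b in the second. Scaling by total counts, which moves the log2 fold change of all genes up by 0.16 in this comparison, gave 4 raised and 4 lowered members. The median absolute log2 fold change of the members was 0.33, that of chromosome 19 outside the window 0.36 and that of all genes 0.38. On the rest of the chromosome 95 of 739 genes (12.9%) were past 2-fold. The log2 fold change was above 0 for 29 members and below 0 for 31. On that scale 41 of 60 members (68.3%) lay within 0.5, where 61.1% of all genes did. For 2 members, agr2 and bzw2, the whole counting interval was past 2-fold, against 3.98% of all genes.

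**Figure D1:**
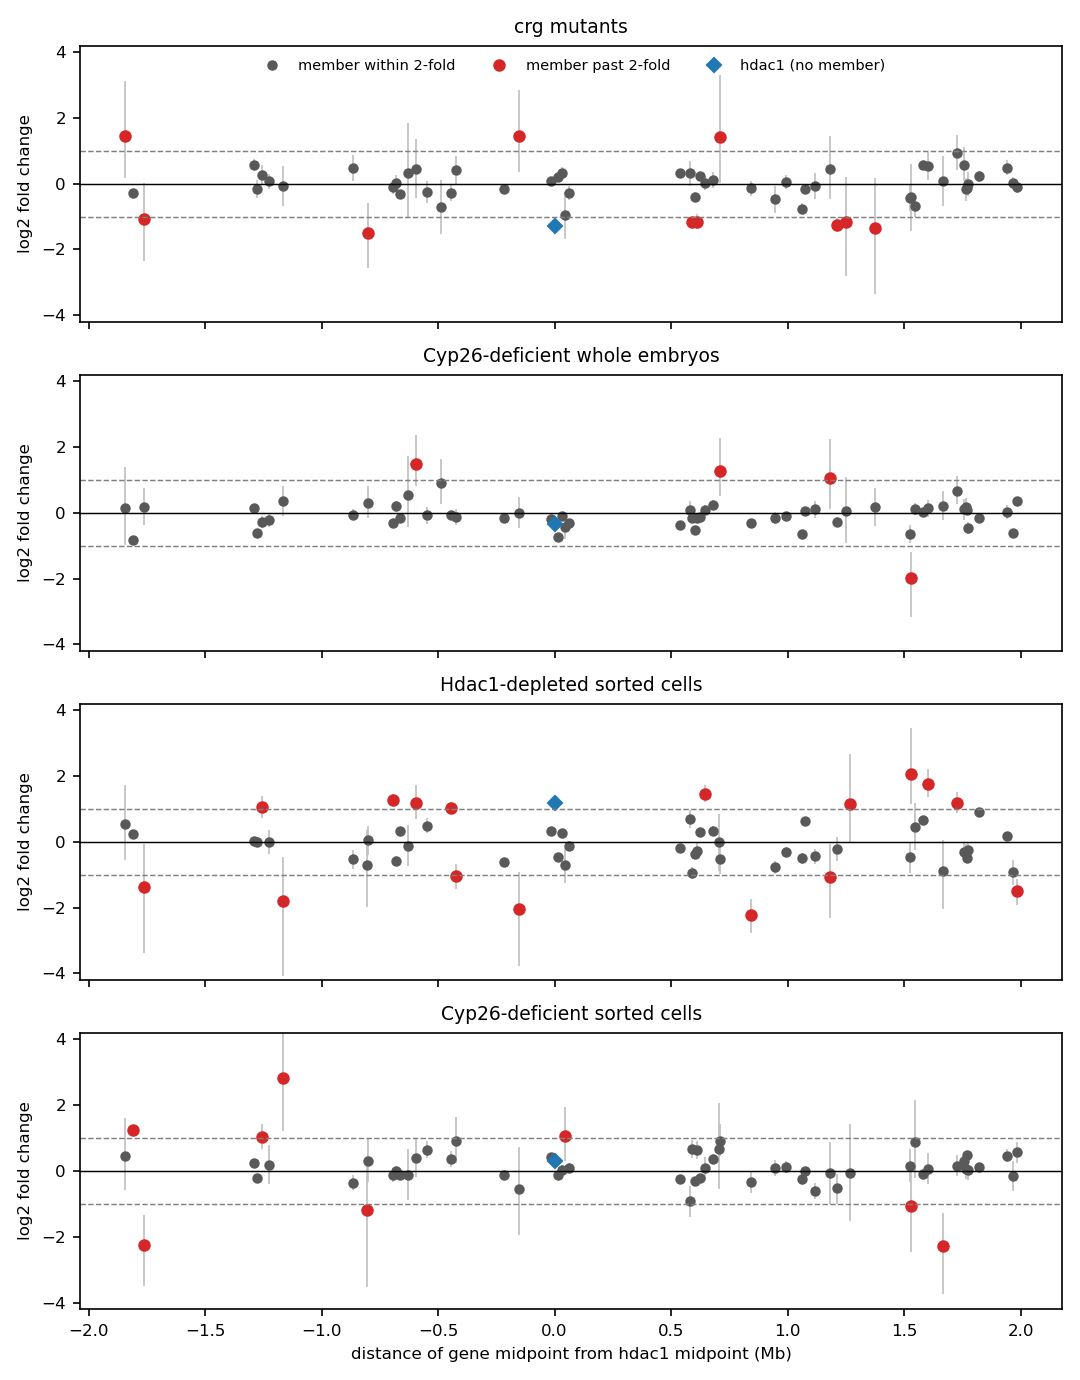
Log2 fold change of each member tested (vertical axis) by the distance of its midpoint from that of hdac1 in Mb (horizontal axis), 1 panel per comparison. Points are single pairs of libraries, grey lines are 95% counting intervals (cut at the axis limits), dashed lines mark 2-fold, and red points are past it; in crg mutants 10 of 60 members are red and those next to hdac1 are not.

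No member within 100 kb of hdac1 was past 2-fold in crg mutants. These 5 members, marcksl1b, eif3i, txlna, THAP6 (1 of 2) and KPNA6, had log2 fold changes from -0.94 to 0.34. Over all genes tested 14.2% were past 2-fold, so 5 members are too few to be set against that share. The tested member nearest to hdac1 on the side of lower coordinates is marcksl1b (14.2 kb between midpoints), an actin-binding substrate of protein kinase C. It had 6569 normalized counts in WT siblings, 6958 in crg mutants, 9428 in the Cyp26 WT control and 8183 in Cyp26-deficient embryos. Its log2 fold change in crg mutants was 0.08 (0.02 to 0.15), and the lowest and highest of the 4 libraries were a WT sibling and a WT control library. On the other side, 14.0 kb away, is eif3i, a subunit of the translation initiation factor eIF3. It had 5212 normalized counts in WT siblings, 5975 in crg mutants, 7103 in the Cyp26 WT control and 4245 in Cyp26-deficient embryos. In crg mutants its log2 fold change was 0.20 (0.13 to 0.27), beside -0.74 (-0.79 to -0.70) in Cyp26-deficient embryos. With the WT control of the other comparison these values were -0.25 and -0.30, and with total counts 0.36 and -0.49. The difference between the comparisons was not tested.

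Beyond eif3i follow txlna, which encodes a syntaxin-binding taxilin, THAP6 (1 of 2), a THAP-type zinc finger gene, and KPNA6, an importin alpha that carries proteins into the nucleus. THAP6 (1 of 2) had 82.3 normalized counts in WT siblings, 42.4 in crg mutants, 85.2 in the Cyp26 WT control and 63.5 in Cyp26-deficient embryos. The crg mutant library was the lowest of the 4, with a log2 fold change of -0.94 (-1.67 to -0.26) that stayed within 2-fold. For txlna the log2 fold change in crg mutants was 0.34 (0.17 to 0.51) and for KPNA6 -0.28 (-0.49 to -0.08). The next genes on that side, more than 0.5 Mb away, were khdrbs1b, which encodes an RNA-binding protein of the Sam68 family, and tspan13b, a tetraspanin gene. Their log2 fold changes were 0.33 (0.25 to 0.40) and 0.31 (-0.07 to 0.70).

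On the side of lower coordinates zdhhc18b, a gene for a palmitoyltransferase of the DHHC family (chr19:30901458-30913807, 0.151 Mb from hdac1), was the nearest member past 2-fold. It had 8 counts in WT siblings, 29 in crg mutants, 67 in the Cyp26 WT control and 103 in Cyp26-deficient embryos. These correspond to 14.3, 41.0, 51.9 and 51.9 normalized counts, a log2 fold change of 1.45 (0.35 to 2.86) in crg mutants. The WT sibling library is the one below the other 3, and against the WT control of the Cyp26 comparison the value was -0.33. The next genes outwards were arid1ab, a subunit of the BAF chromatin remodelling complex, ntla, the brachyury transcription factor of the notochord, nudc, a dynein-associated protein, and C19H1orf172 (2 of 2). Their log2 fold changes were -0.18 (-0.28 to -0.07), 0.41 (-0.02 to 0.85), -0.29 (-0.53 to -0.05) and -0.69 (-1.54 to 0.10), all within 2-fold.

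The members past 2-fold in crg mutants were next counted by distance from hdac1. The nearest bins hold too few members to show whether those past 2-fold gather there. Counting both sides together, 1 of 7 members was past 2-fold up to 0.25 Mb, 0 of 3 from 0.25 to 0.5 Mb, 4 of 20 from 0.5 to 1 Mb, 3 of 12 from 1 to 1.5 Mb and 2 of 18 further out. Within 1 Mb of hdac1 and beyond it the count was the same, 5 of 30 members. The 22 members at lower coordinates held 4 of the 10 and the 38 at higher coordinates held 6. Between 1 and 1.5 Mb at higher coordinates 3 of 7 members were lowered and none was raised, where 7.78% of all genes were lowered, a bin singled out after its values were seen. These 3, bzw2, sostdc1b and meox2b, are each next to another of them in the order of genes tested. With a pseudocount of 10, sostdc1b and meox2b were within 2-fold, at -0.74 and -0.80, and with the WT control of the Cyp26 comparison bzw2 and sostdc1b were, at -0.81 and -0.21, while the top exon of sostdc1b gave 0.82. Of 59 pairs of adjacent members, 2 were past 2-fold in the same direction, both in this group, and 30 (50.8%) shared the sign of their fold change. Over all chromosomes the corresponding shares of adjacent pairs were 1.83% and 52.6%.

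Cutting chromosome 19 into 14 blocks of the window's length put the 16.7% of the window beside 6.78% to 17.9% in the other 13, of which 3 were above it. Above the window were 3 blocks in Cyp26-deficient whole embryos, and in sorted cells 6 after Hdac1 depletion and 5 in Cyp26 deficiency. Chromosome 19 as a whole had 13.2% of its genes past 2-fold in crg mutants, and 19 of the 25 chromosomes had a larger share.

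**Figure D2:**
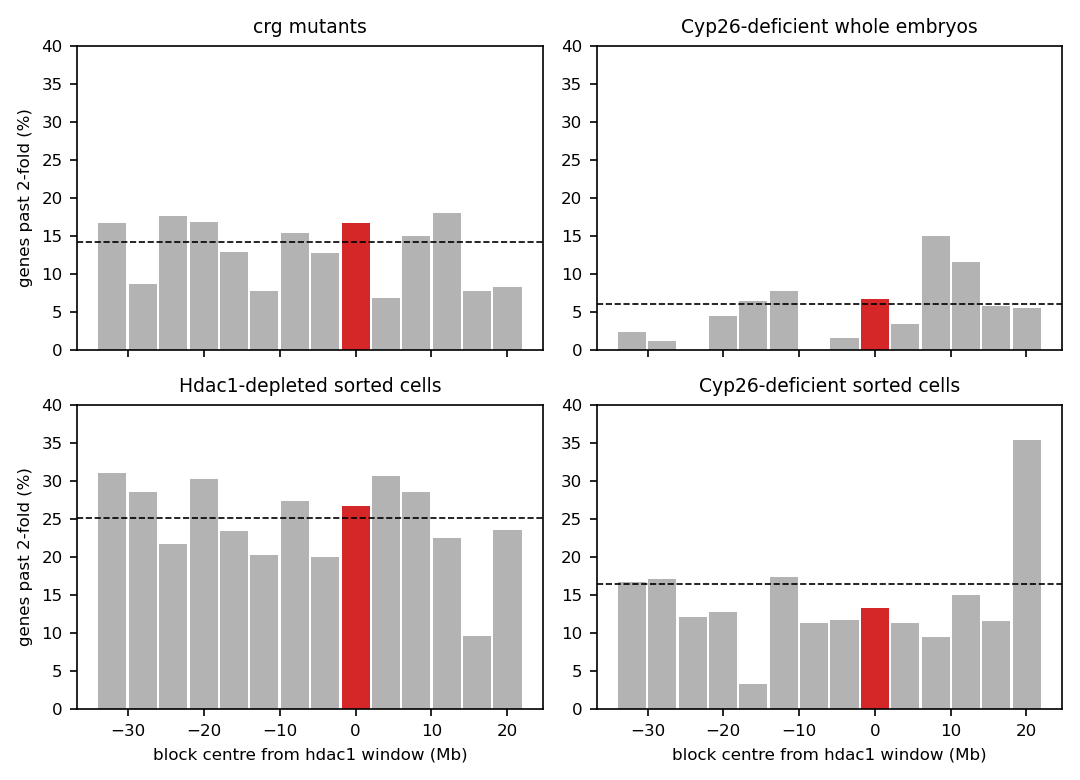
Percent of tested genes past 2-fold (vertical axis) in blocks of chromosome 19 as long as the window, by the distance of the block's centre from the centre of the window in Mb (horizontal axis), 1 panel per comparison. Each bar is 1 block, the red bar is the window around hdac1 and the dashed line is the share over all genes tested; in crg mutants the red bar is at 16.7% and the others lie from 6.78% to 17.9%.

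The difference with the most counts behind it was that of agr2 (ENSDARG00000070480, chr19:31646942-31649494, 0.589 Mb from hdac1), whose product is a protein disulfide isomerase of the endoplasmic reticulum in secretory cells. It had 3055 normalized counts in WT siblings, 1370 in crg mutants, 1224 in the Cyp26 WT control and 1093 in Cyp26-deficient embryos. The log2 fold change in crg mutants was -1.16 (-1.27 to -1.04). The WT sibling library stood above the other 3, which lay close together, and with the WT control of the Cyp26 comparison the value was 0.16. Summed epidermis markers and summed erythrocyte markers each ranked the 4 whole-embryo libraries in the same order, from WT siblings down to Cyp26-deficient embryos. Individual markers did not all have this order. The erythrocyte marker hbbe3 had 3229 counts in WT siblings and 9267 in crg mutants. Normalized, the epidermis markers krt5 and cyt1 were higher in Cyp26-deficient embryos than in their WT control. Sums of the other marker sets did not have this order. Among the sorted libraries neither the epidermis nor the erythrocyte sum had the order of agr2. Whether the amount of epidermis, of blood or of any other tissue bears on agr2 was not tested. All 8 exons of agr2 reached a mean of 10 normalized counts and all were lowered, from -1.76 to -1.03 on the log2 scale. The exon at -1.76 had 7.16 normalized counts in WT siblings and 1.41 in crg mutants. Its interval, from -7.96 to 0.995, includes no difference.

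The mitochondrial ribosomal protein gene mrps18b (chr19:31668515-31674299, 0.612 Mb from hdac1) lies near agr2, with ppp1r10, a regulatory subunit of protein phosphatase 1, between them. It had 764.3 normalized counts in WT siblings, 343.2 in crg mutants, 517.7 in the Cyp26 WT control and 467.1 in Cyp26-deficient embryos. Here the WT sibling library was the highest and the crg mutant library the lowest. The log2 fold change in crg mutants was -1.15 (-1.39 to -0.92), and 6 of its 7 exons passed the limit in this direction, with values from -1.68 to -0.93. The gene between them, ppp1r10, was lower in crg mutants but within 2-fold, with a log2 fold change of -0.39 (-0.52 to -0.27). On the outer sides it was 0.31 for tspan13b and 0.23 for abcf1, which encodes an ABC-F protein of translation and overlaps mrps18b by its last bases on the other strand. For agr2 and mrps18b scaling by total counts gave -0.995 and -0.992, just inside 2-fold, and the WT control of the Cyp26 comparison gave -0.59 for mrps18b.

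**Figure D3:**
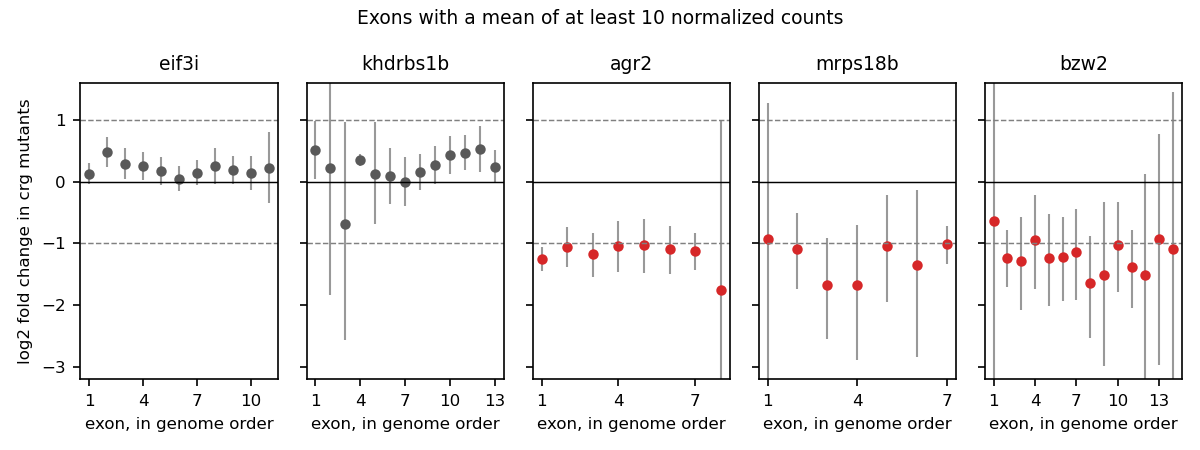
Log2 fold change in crg mutants (vertical axis) of each exon that reached a mean normalized count of 10, in the order of its position on the chromosome (horizontal axis), for 5 members. Lines are 95% counting intervals (cut at the axis limits) and dashed lines mark 2-fold; the 11 exons of eif3i lie between 0.05 and 0.48, while all exons shown of agr2, mrps18b and bzw2 lie below 0.

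The other abundant member past the limit was bzw2 (chr19:32255094-32287995, 1.21 Mb from hdac1), whose product resembles initiation factor eIF5 and modulates translation. It had 1008 normalized counts in WT siblings, 420.9 in crg mutants, 740.1 in the Cyp26 WT control and 615.2 in Cyp26-deficient embryos. The crg mutant library was the lowest and the WT sibling library the highest, with a log2 fold change of -1.26 (-1.47 to -1.05). All 14 of its exons with enough counts had a lower value in crg mutants, 11 of them past 2-fold. Against the WT control of the Cyp26 comparison the log2 fold change was -0.81. The next gene tested after bzw2 was sostdc1b, for a secreted modulator of BMP and Wnt signalling. It had 13 counts in WT siblings, 7 in crg mutants, 15 in the Cyp26 WT control and 24 in Cyp26-deficient embryos. These correspond to 23.3, 9.89, 11.6 and 12.1 normalized counts. The log2 fold change of -1.16 had an interval from -2.80 to 0.20 that includes no difference. The homeobox transcription factor gene meox2b, active in somite derivatives, had 11, 5, 40 and 69 counts in the same order. Normalized, these were 19.7, 7.06, 31.0 and 34.8. Here the crg mutant library was the lowest of the 4, with a log2 fold change of -1.36 (-3.36 to 0.16).

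The remaining members past 2-fold in crg mutants were weakly expressed. For ctgfb, a matricellular growth factor gene 0.802 Mb away, normalized counts were 57.3 in WT siblings, 19.8 in crg mutants, 43.4 in the Cyp26 WT control and 53.9 in Cyp26-deficient embryos. The crg mutant library was the lowest of the 4, with a log2 fold change of -1.49 (-2.55 to -0.59), the lowest value among the members. Part of ctgfb is overlapped by si:ch211-173b8.3 on the other strand. The neuronal calcium sensor gene hpcal4 had 8.95 normalized counts in WT siblings, 25.4 in crg mutants, 11.6 in the Cyp26 WT control and 29.7 in Cyp26-deficient embryos. It was raised in both whole-embryo comparisons, on 5 and 15 counts in the controls. On the log2 scale it differed by 1.41 (0.02 to 3.29) in the mutants and by 1.28 (0.52 to 2.28) in Cyp26 deficiency. With a pseudocount of 10 both values were within 2-fold, at 0.90 and 0.88.

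At the far end of the window si:dkey-150k17.3 and si:dkey-150k17.2 lie 1.84 and 1.76 Mb from hdac1, near the transcription factor gene sox4a. The first, listed as linc.sox4a in the gene name table, had 6 counts in WT siblings, 22 in crg mutants, 11 in the Cyp26 WT control and 19 in Cyp26-deficient embryos. These correspond to 10.7, 31.1, 8.52 and 9.57 normalized counts. This first gene overlaps sox4a on the same strand, so reads of both transcripts may not be separable, and its log2 fold change was 1.45 (0.19 to 3.12). With a pseudocount of 10 it was just within 2-fold, at 0.99. The second had 19, 11, 43 and 75 counts in the same order, or 34.0, 15.5, 33.3 and 37.8 normalized counts. Its log2 fold change in crg mutants was -1.08 (-2.35 to 0.01). The 2 genes thus differed in opposite directions, while sox4a itself had a log2 fold change of -0.28 (-0.38 to -0.18).

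**Figure D4:**
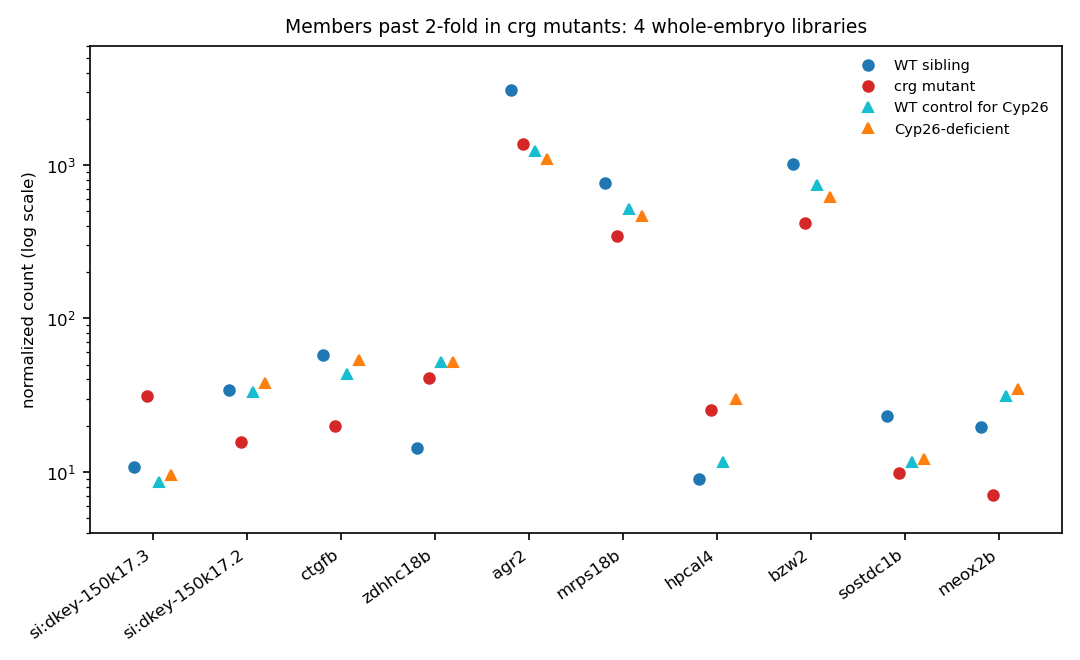
Normalized count (vertical axis, log scale) of the 10 members past 2-fold in crg mutants in each of the 4 whole-embryo libraries (circles for the crg pair, triangles for the Cyp26 pair), from lower to higher coordinates. Each point is 1 library without error. For zdhhc18b, agr2 and hpcal4 the WT sibling library and not the crg mutant library lies outside the range of the other 3. The pairs also differ from each other, so this does not show which library is unusual.

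The members past 2-fold were mostly weakly expressed. Among the 16 members with a mean from 10 to 100 normalized counts, 7 were past 2-fold in crg mutants (43.8%, where 27.4% of all genes of that level were). Among the 44 members at or above 100 the count was 3 (6.82%, where 7.64% of all genes were), namely agr2, mrps18b and bzw2. The crg mutant library alone lay outside the range of the other 3 whole-embryo libraries for 3 of the 10 members, si:dkey-150k17.3, si:dkey-150k17.2 and meox2b. The WT sibling library alone lay outside it for 3, zdhhc18b, agr2 and hpcal4, and both lay outside it on opposite sides for 4, ctgfb, mrps18b, bzw2 and sostdc1b. Among all 2827 genes past 2-fold these shares were 36.3%, 26.5% and 36.6%. The whole-embryo pairs also differ from each other. With the WT control of the Cyp26 comparison 28.8% of all genes were past 2-fold in crg mutants, beside 14.2% with WT siblings. A library outside the range therefore cannot be taken as the unusual one of its pair.

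In Cyp26-deficient whole embryos, which do not carry the crg chromosome, 4 of 60 members (6.67%) were past 2-fold, close to the 6.10% of all genes. The raised members were tmem222b, hpcal4 and sync, a muscle intermediate filament gene, against 3.50% of all genes raised, and the only lowered one was si:ch211-134n17.5, against 2.59% of all genes lowered. The transmembrane protein gene tmem222b had 14.7 normalized counts in the WT control and 43.3 in Cyp26-deficient embryos, with 32.2 in WT siblings and 43.8 in crg mutants. The WT control for Cyp26 was the lowest of the 4, and the log2 fold change was 1.495 (0.83 to 2.36). For si:ch211-134n17.5 normalized counts were 28.7 in the WT control, 6.55 in Cyp26-deficient embryos, 34.0 in WT siblings and 25.4 in crg mutants. The Cyp26-deficient library was the lowest, with a log2 fold change of -1.97 (-3.17 to -1.19), the only member with the whole counting interval past 2-fold (2.09% of all genes). This gene shares bases with scin on the other strand, and its exon with the highest mean gave -0.22. The median absolute log2 fold change of the members was 0.19, against 0.33 in crg mutants, and that of all genes was 0.29 against 0.38.

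In Hdac1-depleted sorted cells the members differed most often. Of 60, 16 (26.7%) were past 2-fold, again close to all genes, of which 25.1% were. The 9 raised members (12.4% of all genes were raised) were tmem57a, stx12, tmem222b, nudc, C19H6orf136, si:dkeyp-25a3.1, si:ch211-134n17.5, tmem55a and tmem64. The 7 lowered ones (12.7% of all genes were lowered) were si:dkey-150k17.2, fndc5b, ntla, zdhhc18b, fam49a, sync and hey1. For 6 members the whole counting interval was past 2-fold, against 12.4% of all genes. The median absolute log2 fold change was 0.53 for the members and 0.53 for all genes.

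The largest difference in these cells was that of fam49a, a gene whose mammalian relatives bind Rac1. It had 164 normalized counts in WT and 34.6 in Hdac1-depleted cells, with 220 and 173 in the WT and deficient libraries of the Cyp26 pair. The Hdac1-depleted library alone was low, and the log2 fold change was -2.21 (-2.78 to -1.74). In crg mutants fam49a was at -0.14 (-0.36 to 0.09), and at -1.15 with the WT control of the Cyp26 comparison. For si:ch211-134n17.5 normalized counts were 7.44 in WT, 34.6 in Hdac1-depleted cells, and 21.0 and 9.60 in the WT and deficient libraries of the Cyp26 pair, a log2 fold change of 2.08 (1.15 to 3.45). The Hdac1-depleted library was the highest, although the 2 WT libraries themselves were far apart. The Notch target gene hey1, chosen here after its values were seen, had 183 normalized counts in WT and 63.9 in Hdac1-depleted cells, with 162 and 240 in the other WT and Cyp26-deficient cells. Its log2 fold change was -1.50 (-1.92 to -1.13), beside -0.11 (-0.28 to 0.06) in crg mutants.

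Among the raised members 3 were picked out after their values were seen, and they are not the 3 most abundant. The raised member with the highest mean was nudc, at 1.04 (0.87 to 1.20), and at 0.99 with total counts. For tmem57a the value was 1.05 (0.73 to 1.38), beside 1.03 (0.65 to 1.43) in Cyp26-deficient cells. The syntaxin gene stx12, for a SNARE protein of endosomes, had 299 normalized counts in WT and 718 in Hdac1-depleted cells, with 402 and 370 in the WT and deficient libraries of the Cyp26 pair. C19H6orf136 had 148 and 406, with 164 and 173 in the Cyp26 pair, and tmem55a, for a phosphoinositide phosphatase, had 51.3 and 177, with 91.3 and 96.0. For each of them the Hdac1-depleted library alone was above the rest, with log2 fold changes of 1.26 (1.08 to 1.45), 1.45 (1.21 to 1.71) and 1.76 (1.37 to 2.22). In crg mutants the same genes were at -0.12 (-0.31 to 0.08), 0.02 (-0.18 to 0.23) and 0.53 (0.12 to 0.96). A little further out, tmem64 had a log2 fold change of 1.19 (0.88 to 1.52) in the sorted cells and 0.94 (0.42 to 1.49) in crg mutants, just within 2-fold.

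Close to hdac1, zdhhc18b had 24.8 normalized counts in WT, 5.32 in Hdac1-depleted cells, and 16.0 and 10.7 in the WT and deficient libraries of the Cyp26 pair. The log2 fold change of -2.03 (-3.78 to -0.93) rests on 6 counts in the depleted library and has the opposite sign to that in crg mutants. For ntla the values were 155 in WT, 75.4 in Hdac1-depleted cells, and 32.1 and 60.8 in the WT and deficient libraries of the Cyp26 pair. The WT control for Hdac1 was the highest and the other WT control the lowest, so the log2 fold change of -1.03 (-1.43 to -0.67) was 1.21 with the other control. The tested members nearest to hdac1 on either side were within 2-fold, with log2 fold changes of 0.34 (0.29 to 0.38) for marcksl1b and -0.46 (-0.52 to -0.40) for eif3i.

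In Cyp26-deficient sorted cells 8 of 60 members (13.3%) were past 2-fold, where 16.4% of all genes were. The 4 raised members (8.81% of all genes) were sox4a, tmem57a, fndc5b and THAP6 (1 of 2), and the 4 lowered ones (7.60% of all genes) were si:dkey-150k17.2, si:ch211-173b8.3, si:ch211-134n17.5 and necab1. Scaling by total counts gave 5 raised and 3 lowered. For 4 members the whole counting interval was past 2-fold, against 4.56% of all genes. The most abundant of them was sox4a, a SOX-family transcription factor gene, with 3457 normalized counts in WT and 8180 in Cyp26-deficient cells, and 3864 and 4564 in the WT and depleted libraries of the Hdac1 pair. The Cyp26-deficient library alone was high, with a log2 fold change of 1.24 (1.18 to 1.31), whereas in Cyp26-deficient whole embryos sox4a was at -0.84 (-0.88 to -0.80). In whole embryos sox4a had 8140 normalized counts in the Cyp26 WT control, 4557 in Cyp26-deficient embryos, 2792 in WT siblings and 2295 in crg mutants. The Cyp26-deficient embryos thus lay between the WT libraries, and the sign of their difference rests on the control used. THAP6 (1 of 2), close to hdac1, had 23.4 and 50.1 in the Cyp26 pair and 71.1 and 43.5 in the Hdac1 pair, so its log2 fold change of 1.07 (0.30 to 1.95) rests on the low WT library. The irisin precursor gene fndc5b had 2 counts in WT and 22 in Cyp26-deficient cells, with 18 in the WT control for Hdac1 and 4 in Hdac1-depleted cells. The ratio of normalized counts was 9.51 (2.34 to 83.4), and it rests on the single low WT library. The neuronal calcium-binding protein gene necab1 had 45.7 normalized counts in WT, 8.54 in Cyp26-deficient cells, 22.3 in the WT control for Hdac1 and 11.5 in Hdac1-depleted cells. On the log2 scale it differed by -2.29 (-3.73 to -1.29), with the WT control for Cyp26 the highest library. For si:dkey-150k17.2 normalized counts were 54.3 in WT, 10.7 in Cyp26-deficient cells, 13.2 in the WT control for Hdac1 and 4.44 in Hdac1-depleted cells. On that scale it was at -2.24 (-3.50 to -1.34), and the same WT control again stood above the other 3 libraries.

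Crg mutants and Hdac1-depleted sorted cells were then set side by side. Of 57 members tested in both tables, 8 were past 2-fold in crg mutants and 15 in Hdac1-depleted sorted cells. The gene si:dkey-150k17.2 was lowered in both, and zdhhc18b was past the limit in opposite directions. Together they make up 25.0% of the members past 2-fold in crg mutants and 13.3% of those in the sorted cells, where over all 18194 genes tested in both tables these shares were 36.9% and 19.1%. The values for si:dkey-150k17.2 were -1.08 in crg mutants and -1.39 (-3.38 to -0.06) in Hdac1-depleted cells. Both were within 2-fold with a pseudocount of 10, at -0.79 and -0.69, and the first also with total counts, at -0.93. It was also lowered in Cyp26-deficient sorted cells but not in Cyp26-deficient embryos, where it was at 0.18 (-0.38 to 0.76). The abundant members lowered in crg mutants stayed within 2-fold in Hdac1-depleted cells, with -0.95 (-1.13 to -0.77) for agr2, -0.27 (-0.49 to -0.05) for mrps18b and -0.22 (-0.59 to 0.14) for bzw2. Over all 4 comparisons, 35 of the 63 members were past 2-fold in none, 20 in 1, 6 in 2 and 2 in 3, and 0 in all 4. Those in 3 were si:dkey-150k17.2 and si:ch211-134n17.5. Of the 63, 3 were tested in whole embryos alone and 3 in sorted cells alone, so these could be past 2-fold in at most 2. No share over all genes is given beside these counts, so they cannot be read as particular to the members. Tissue, stage and library preparation differ between the tables as well as the way Hdac1 was lowered, and these cannot be told apart.

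**Figure D5:**
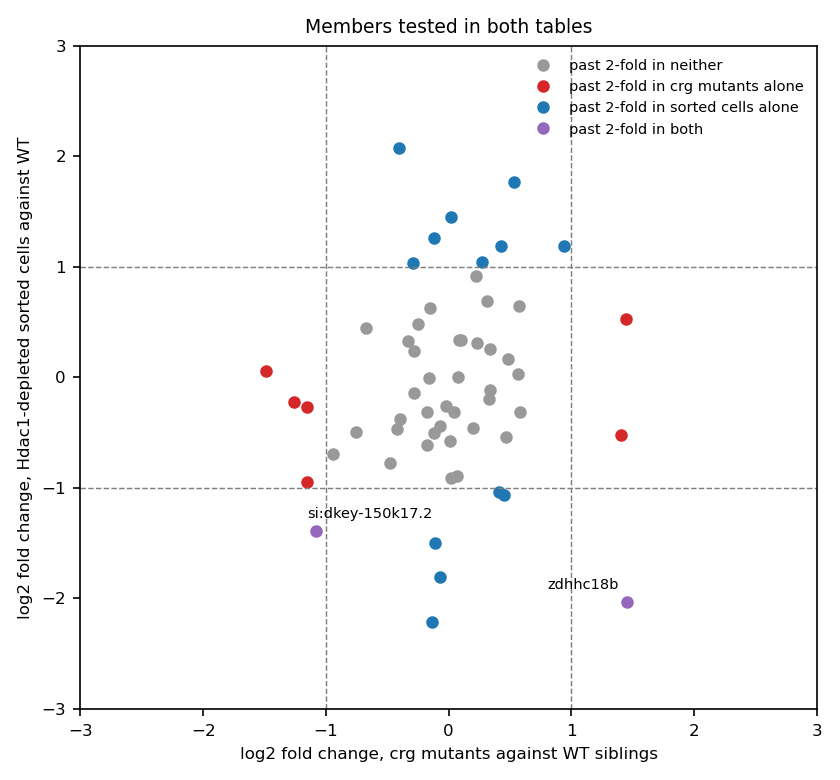
Log2 fold change of the 57 members tested in both tables in crg mutants against WT siblings (horizontal axis) and in Hdac1-depleted sorted cells against WT (vertical axis). Each point is 1 gene and dashed lines mark 2-fold; si:dkey-150k17.2 and zdhhc18b, labelled, are the members past 2-fold in both.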

How the data were processed

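With Strand-NGS the authors aligned reads to Zv9/danRer7. For genes and exons they deposited expected counts, not normalized, with 1 table for each kind of sample. The deposited whole-embryo values, listed as another unit because they share 1 field, are also expected counts. Submitters' processing notes name DESeq, and read filters are not given in the sources used here. After rounding to whole numbers, counts were normalized within each table by DESeq2 size factors (median of ratios, DESeq2 1.42.0, R 4.3.3). A mean normalized count of 10 was needed for a gene to be compared, the limit was 2-fold, and no p-value was computed. Intervals used scipy 1.17.1 in Python 3.11.15 and were tested on simulated data. Members were named if among the 6 nearest to hdac1 on each side, the 10 largest past 2-fold in crg mutants, the 3 largest in each other comparison, or past 2-fold in the same direction in crg mutants and Hdac1-depleted cells. Genes at or under 3 counts in both libraries were passed over, and other members are listed because they passed the limit or adjoin a named gene. Members, lists and rules were chosen with earlier results of these data known. Alternatives were edgeR 4.0.16 TMM, total counts, pseudocounts of 0.1 and 10, the other WT control, the top exon, no filter, a mean of 50, windows of 1 and 4 Mb, 4-fold, and the nearer interval limit. No sequences are printed, since the reference tables used here held none.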

Additional observations from a re-analysis of the deposited data

Results flagged for a closer look

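The gene zdhhc18b, 0.151 Mb from hdac1, moved in opposite directions in the comparisons that lower Hdac1, each against its own WT control. Its log2 fold change was 1.45 in crg mutants, on 8 counts in WT siblings and 29 in mutants, and -2.03 in Hdac1-depleted sorted cells, on 30 counts in WT and 6 after depletion. The WT siblings were the lowest whole-embryo library for zdhhc18b, and against the WT control of the Cyp26 comparison the crg value was -0.33. The difference between the comparisons was not tested, because each rests on 1 pair of libraries.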

How the results depend on the processing

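No paired analysis was possible because each condition has 1 library. Scaling by total counts moved the median log2 fold change of all genes by 0.16 in crg mutants and 0.25 in Cyp26-deficient embryos. In the order crg mutants, Cyp26-deficient embryos, Hdac1-depleted cells and Cyp26-deficient cells, the counts of 10, 4, 16 and 8 members past 2-fold became 5, 2, 10 and 4 with a pseudocount of 10, and 3, 0, 10 and 2 with a mean of at least 50. Shares of all genes fell as well, to 9.26%, 3.34%, 18.8% and 10.2% with that pseudocount and to 9.61%, 3.93%, 18.8% and 8.94% with that mean. They became 5, 2, 7 and 2 within 1 Mb, where 30 or 31 members were tested, 0, 0, 3 and 3 with a limit of 4-fold, and 2, 1, 6 and 4 with the nearer interval limit. Within 4 Mb, where 131 members were tested in embryos and 129 in sorted cells, they became 16 in crg mutants, and in sorted cells 34 after Hdac1 depletion and 16 in Cyp26 deficiency. The other WT control gave 7 in Cyp26-deficient embryos (11.7%), where 23.2% of all genes were past 2-fold. In crg mutants that control put 23.3% of members and 28.8% of all genes past 2-fold. For the limit of 4-fold no share over all genes is given. Counts under the remaining alternatives stayed within 1.5 times. The median absolute log2 fold change moved from 0.33 to 0.56 in crg mutants with the other WT control. In Cyp26-deficient embryos it moved from 0.19 to 0.33 with total counts, 0.36 with the other WT control and 0.31 with the top exon, and in Cyp26-deficient cells from 0.30 to 0.48 with the top exon. Of 588 alternative values of named members, 57 changed sign, 34 of them with the other WT control. Of the 57, 50 concern values within 2-fold and 7 values past it. Among these 7, with the other WT control, agr2 went to 0.16 and zdhhc18b to -0.33 in crg mutants, in Hdac1-depleted cells fndc5b went to 0.39 and ntla to 1.21, and si:ch211-134n17.5 to 0.33 and THAP6 (1 of 2) to -0.50 in Cyp26-deficient cells. The top exon put sostdc1b at 0.82 in crg mutants. The cause of these moves was not tested. Each comparison rests on 1 pair of libraries, and 16 of 60 members in whole embryos had a mean under 100 normalized counts.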
